A study of Drosophila melanogaster with 7 samples.

Results

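Mitochondrial ribosomal protein genes were taken as all genes in the deposited gene table whose symbol starts with mRpL (large subunit) or mRpS (small subunit). The rule gave 72 of the 13771 listed genes, of which 46 were mRpL and 26 were mRpS genes. All 72 passed the filter on low counts and were among the 10514 genes tested. The cells came from Drosophila melanogaster ovaries and were sorted live for GFP under the bam promoter (bamP-GFP), which is active in dividing germline cysts. In the Atx2 KD group (4 libraries) an shRNA against Atx2, the fly Ataxin-2 gene, was expressed, and in the Control KD group (3 libraries) an shRNA against mCherry, a fluorescent protein that flies lack. Both groups carried the bamP-GFP reporter and the nos-GAL4::VP16 driver, which acts in the germline, so a knockdown is driven in germ cells and not in the follicle cells around them. The age of the flies, the number of animals per library and whether libraries were separate dissections are not given in the labels, so p-values measure only the spread between these libraries, which may be technical.

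Mitochondria carry their own ribosomes, which translate the few proteins encoded in mitochondrial DNA, mostly subunits of the respiratory chain. The ribosomal RNAs come from the mitochondrial genome, whereas the ribosomal proteins are encoded in the nucleus, translated in the cytoplasm and imported. The large subunit forms peptide bonds and holds the exit tunnel, and the small subunit binds the mRNA and decodes it. Some members have bacterial counterparts, and others occur only in mitochondrial ribosomes. In the female germline mitochondria multiply and are selected as cysts develop, since the egg passes them on.

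The 7 libraries held 65262402 to 101809997 estimated counts. Atx2 itself stood at 70.6, 51.5, 71.7 and 58.8 TPM (a level scaled for transcript length and to a fixed total per library) in Atx2 KD replicates 1 to 4. It stood at 110, 111 and 112 TPM in the control replicates, a log2 fold change of -0.85 ± 0.10 (SE, adjusted p = 0.00166, edgeR quasi-likelihood test with Benjamini-Hochberg adjustment over all genes). The 9 measured germline markers summed to 1297 to 1727 TPM in the knockdown and 1731 to 2280 TPM in the control, and none was at 0; bgcn passed the test as higher and zpg, orb, otu and bru1 as lower. The 12 measured markers of follicle cells, yolk and eggshell, which germ cells should lack, summed to 5499 to 26302 TPM in the knockdown and 34756 to 68411 TPM in the control. Of them, 5 (Vm26Ab, Vm34Ca, Vml, psd and dec) passed as lower and Fas3 as higher. The follicle and somatic markers tj and upd1 also had log2 fold changes above 0, without passing (0.12, adjusted p = 0.586, and 0.35, adjusted p = 0.272). The other 9 lay below 0. With the replicate number as a block, 9 of these 12 and 5 of the 9 germline markers were lower. The part of these markers in the results below was not tested, and 2 calculations that use them are given there. Fewer cells of a type and less RNA per cell cannot be told apart in these bulk samples. A heat shock list separated libraries numbered 1 and 2 (mean 7.48 to 8.18 log2 CPM, counts scaled to library size) from those numbered 3 and 4 (8.59 to 8.96) in both groups.

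The genes of both subunits were expressed at moderate and similar levels. Mean TPM over the 7 libraries ran from 32.0 for mRpS18B to 153 for mRpL33, a 4.79-fold range, and 64 of the 72 genes lay between 40 and 100 TPM. The median was 65.1 TPM over large subunit genes and 60.9 TPM over small subunit genes. It was 19.3 TPM over all genes tested and 4392 TPM over the 89 tested genes for proteins of the cytoplasmic ribosome. Thus the transcripts of mitochondrial ribosomal proteins were well above the median gene and far below their cytoplasmic counterparts. Protein levels were not measured. All 72 are annotated as protein coding, and they lie on every major chromosome arm: 11 on X, 12 on 2L, 11 on 2R, 17 on 3L and 21 on 3R. They are short: the longest annotated transcript had a median of 778.5 bases, against 1995 for all genes tested, and 62 of the 72 (86.1%) fell in the shortest of 4 length classes of equal size.

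**Figure D1:**
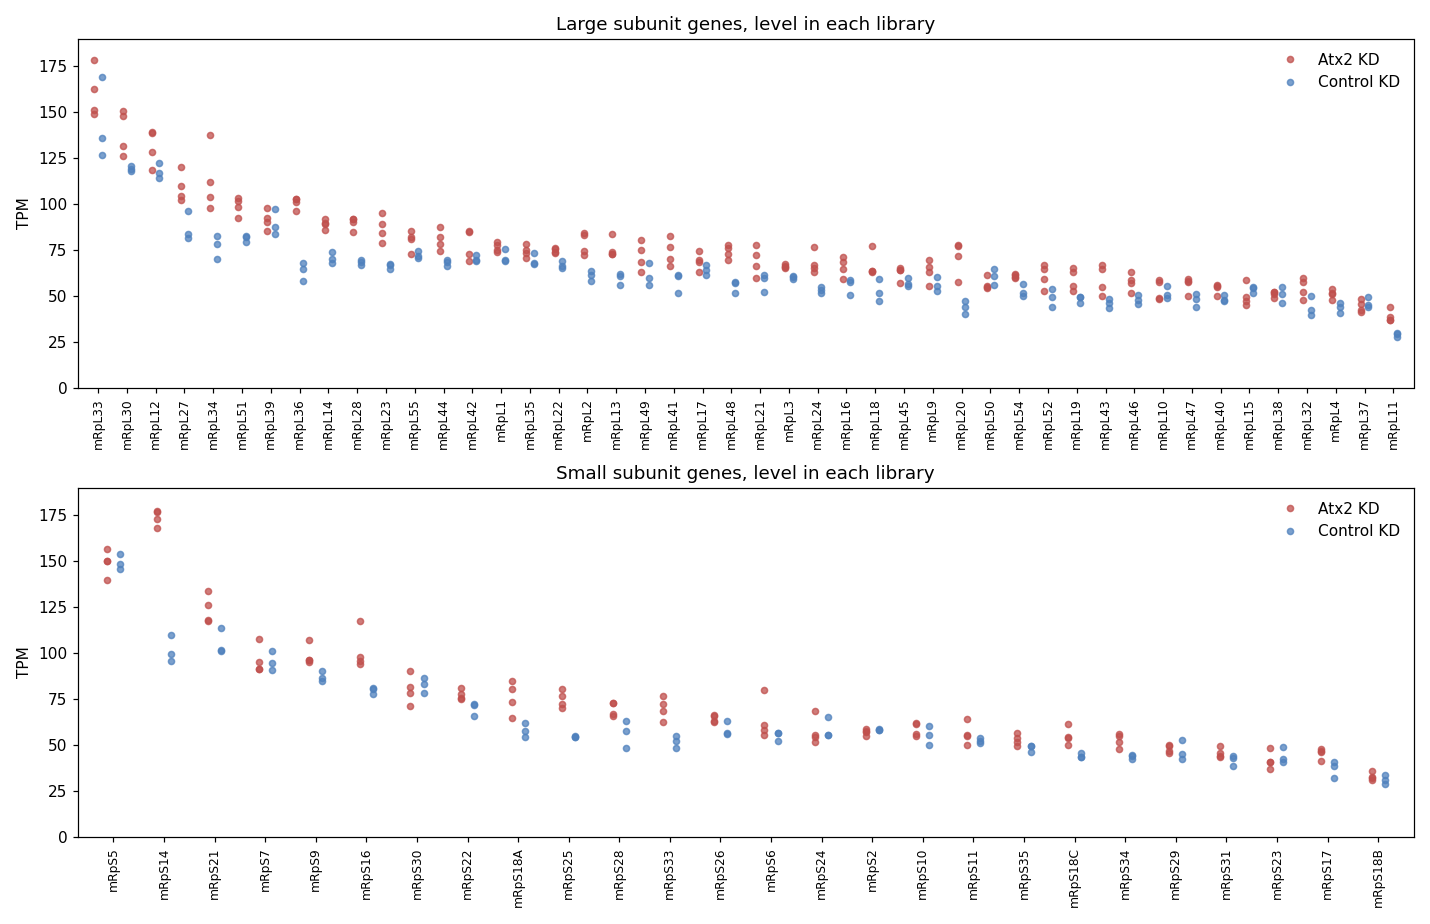
Level of each large subunit gene (top) and small subunit gene (bottom) in TPM, ordered by mean TPM, with 1 point per library (4 Atx2 KD, red; 3 Control KD, blue). Most genes lie between 40 and 100 TPM in both groups, mRpS14, mRpL36 and mRpL20 show separate groups, and mRpS5 and mRpL33 are high in both.

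In the large subunit the highest level belonged to mRpL33, a small protein of a bacterial family. It stood at 151, 149, 163 and 179 TPM in the knockdown and at 169, 136 and 127 TPM in the control. These ranges overlapped, and the gene did not pass the test (log2 fold change 0.09, adjusted p = 0.618). It was followed by mRpL30, at 126 to 151 TPM in the knockdown and 118 to 121 TPM in the control, which did not pass (0.17, adjusted p = 0.292). Next was mRpL12, the stalk protein that recruits translation factors, at 119 to 139 and 114 to 123 TPM. The other stalk proteins were lower: mRpL10, which anchors the stalk in bacteria, had 48.4 to 58.4 and 49.0 to 55.2 TPM, and mRpL11 of the stalk base had the lowest mean of the large subunit, 34.7 TPM. Stalk genes thus spanned nearly the whole range of levels of the large subunit. The other low genes were mRpL37, at 41.3 to 48.4 TPM in the knockdown and 43.7 to 49.3 TPM in the control, and mRpL4, whose bacterial counterpart lines the exit tunnel, at 47.6 to 53.8 and 40.7 to 46.2 TPM.

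In the small subunit mRpS5, whose bacterial counterpart lies where the mRNA enters, led with 140, 150, 156 and 150 TPM in the knockdown and 149, 154 and 146 TPM in the control. Its means were 149 ± 6.97 (SD, n = 4) and 149 ± 4.21 TPM (SD, n = 3), and the groups overlapped. mRpS14 of the head was second by mean over all libraries, and it had the highest mean of all 72 genes in the knockdown, 174 TPM. mRpS21 followed, at 118 to 134 TPM in the knockdown and 101 to 113 TPM in the control, and did not pass (log2 fold change 0.18, adjusted p = 0.211). In its exons 228 bases overlap CG8870 on the opposite strand, and no source used here says whether counting used the strand. The lowest were mRpS18B, at 30.7 to 35.5 and 28.7 to 33.5 TPM, mRpS17, at 41.4 to 47.7 and 31.9 to 40.5 TPM, and mRpS23, at 36.9 to 48.2 and 40.7 to 48.7 TPM. The TPM groups of mRpS17 were apart, but it did not pass (log2 fold change 0.26, adjusted p = 0.232).

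With Atx2 knockdown, 7 mitochondrial ribosomal protein genes rose and none fell. The 7 were mRpL2, mRpL20, mRpL28, mRpL36 and mRpL48 of the large subunit and mRpS14 and mRpS25 of the small subunit. They make up 9.72% of the 72, where 5.61% of all genes tested rose and 7.67% fell. Higher calls were 42.3% of all calls with TMM scaling, 57.5% with upper-quartile scaling and 62.2% on log2 TPM. By subunit, 5 of 46 large subunit genes (10.9%) and 2 of 26 small subunit genes (7.69%) rose. At an unadjusted p under 0.05, 25 members (34.7%) were higher and 0 were lower in edgeR, against 14.2% higher over all genes. DESeq2 called 16 higher and 0 lower, where it called 9.82% of all genes higher and 10.6% lower. The fold changes were small: the median log2 fold change was 0.18 over the members, 0.20 over the large subunit and 0.11 over the small subunit, against 0.01 over all genes. Values above 0 were found for 41 of 46 large subunit genes and 20 of 26 small subunit genes, and for 51.0% of all genes. The members ranged from -0.15 for mRpL50 (adjusted p = 0.303) to 0.72 for mRpS14, and the difference between the subunits was not tested.

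The count of 7 rests on small margins. Knockdown and control libraries numbered 2 and 3 correlated more than any pair with different numbers, and those numbered 1 did not. With the replicate number as a block 20 members rose and 0 fell, where 13.8% of all genes rose and 14.2% fell. Of these 20, 15 were in the large and 5 in the small subunit, and all 7 genes named above were among them. Number 4 exists only in the knockdown, so with the block Atx2 KD replicate 4 does not enter the group difference. The count was 19 without Atx2 KD replicate 1, where 4.17% of all genes rose, and 4, 5 and 4 without replicates 2, 3 and 4, where 4.57%, 3.08% and 3.24% rose. It was 2, 4 and 5 without Control KD replicates 1, 2 and 3, where 1.70%, 1.73% and 5.73% of all genes rose.

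**Figure D2:**
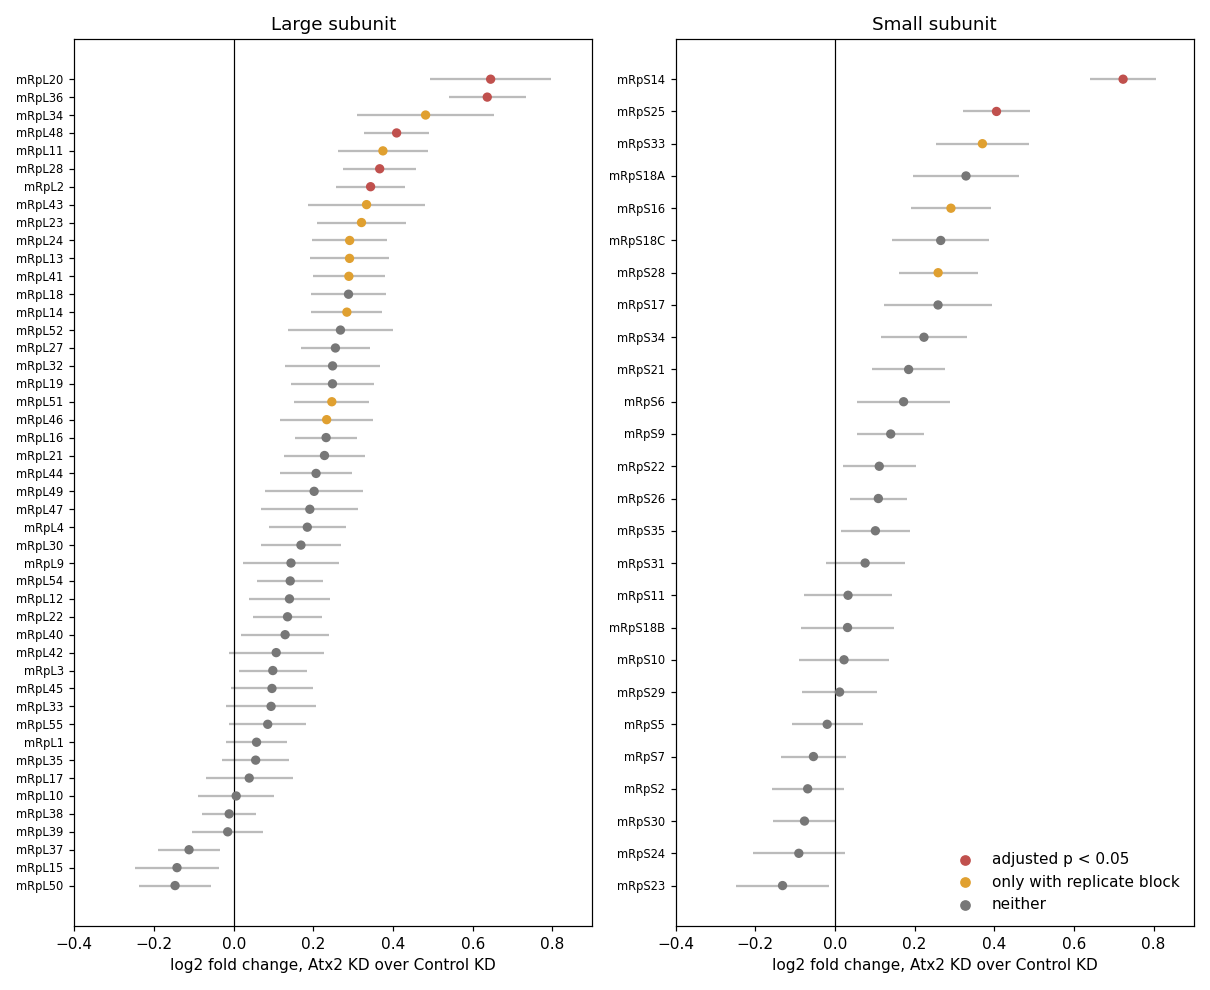
Log2 fold change of each member, Atx2 KD over Control KD, from the edgeR fit, with bars of 1 SE, for the large (left) and small (right) subunit. Red points passed an adjusted p of 0.05, orange points passed only with the replicate block and grey points passed neither; 61 of the 72 points lie to the right of 0.

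mRpS14, a protein of the small subunit head with a bacterial counterpart, showed the largest change. Its levels were 177, 173, 168 and 177 TPM in the knockdown and 110, 95.7 and 99.6 TPM in the control. Every knockdown library lay well above every control library, and the spread within each group was small beside the gap. The means were 174 ± 4.23 (SD, n = 4) and 102 ± 7.35 TPM (SD, n = 3), and the log2 fold change was 0.72 ± 0.08 (SE, adjusted p = 0.00146). The gene (FBgn0044030) lies on the minus strand of X:19479382-19480238 in the BDGP6.54 annotation, and 255 bases of its exons overlap the opposite-strand gene Naa15-16. Naa15-16 had 86.5 to 116 TPM in the knockdown and 108 to 121 TPM in the control (log2 fold change -0.15 ± 0.08, adjusted p = 0.242) and its value lay on the other side of 0. A further 30 bases overlap CG32533 on the same strand. The gene passed in all 15 alternatives of the analysis.

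mRpL36, the counterpart of a small zinc-binding protein of the bacterial large subunit, had 101, 103, 96.1 and 103 TPM in the knockdown. In the control it had 67.7, 58.0 and 64.7 TPM. The groups did not overlap, with means of 101 ± 3.10 (SD, n = 4) and 63.5 ± 4.95 TPM (SD, n = 3), and the log2 fold change was 0.64 ± 0.10 (SE, adjusted p = 0.00432). The gene (FBgn0042112, 3L:8124584-8125132) overlaps no exon of another gene, and it too passed in all 15 alternatives.

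mRpL20, whose bacterial counterpart binds ribosomal RNA early in assembly, changed by a similar amount but with a wider spread. It had 57.6, 71.7, 77.1 and 77.9 TPM in the knockdown and 40.2, 43.7 and 47.4 TPM in the control. Knockdown replicate 1 was the lowest of its group and still above every control library. The log2 fold change was 0.65 ± 0.15 (SE, adjusted p = 0.0271) at 3L:13017149-13017867 (FBgn0036335), with no overlapping exon. The gene passed in 9 of the 15 alternatives, with an adjusted p of at most 0.164. The call was lost without Atx2 KD replicate 2, 3 or 4 or Control KD replicate 1 or 2 (adjusted p 0.0557 to 0.102).

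mRpL48, a mitochondria-specific protein of the large subunit's central protuberance in mammals, had 76.4, 72.7, 69.5 and 77.8 TPM in the knockdown and 57.6, 51.4 and 57.3 TPM in the control. mRpS25, a mitochondria-specific small subunit protein, had 76.9, 72.1, 70.0 and 80.3 TPM against 54.4, 54.3 and 55.0 TPM. In both genes the groups were apart by more than the range within either group. The log2 fold change was 0.41 ± 0.08 for mRpL48 (SE, adjusted p = 0.0147) and also 0.41 ± 0.08 for mRpS25 (SE, adjusted p = 0.0169). mRpL48 (FBgn0031357, 2L:1710462-1711465) shares 219 bases with opposite-strand features that include frtz, and frtz did not pass the test (-0.06, adjusted p = 0.709). mRpS25 (FBgn0030572, X:14582136-14582982) shares 39 bases with the opposite-strand gene CG14414, whose TPM groups were also apart, at 19.0 to 20.5 and 15.3 to 17.8 (log2 fold change 0.23, adjusted p = 0.165). They passed in 12 and 13 of the 15 alternatives; mRpL48 did not pass without Control KD replicate 1 (adjusted p = 0.0778) or 2 (0.0658), and mRpS25 did not pass without Control KD replicate 1 (0.0868).

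mRpL2, a core protein near the peptidyl transferase centre, had 84.2, 74.6, 72.4 and 83.4 TPM in the knockdown and 61.3, 63.7 and 58.4 TPM in the control. mRpL28, of a bacterial family, had 85.0, 91.7, 90.4 and 92.1 TPM against 69.7, 66.8 and 68.6 TPM. The groups did not overlap for either gene, but these were the smallest of the changes that passed. The log2 fold change was 0.34 ± 0.09 for mRpL2 (SE, adjusted p = 0.0327; FBgn0036135, 3L:11120847-11122041) and 0.37 ± 0.09 for mRpL28 (SE, adjusted p = 0.0332; FBgn0031660, 2L:4973976-4975316). mRpL2 shares 76 bases with the opposite-strand gene Ufd1, which had 58.1 to 63.3 TPM in the knockdown and 52.6 to 54.1 TPM in the control (log2 fold change 0.16, adjusted p = 0.269). mRpL28 shares 17 bases with Gmd, whose groups overlapped (0.11, adjusted p = 0.290). Whether reads of these partners reached the members was not tested. Each member passed in 8 of the 15 alternatives, with adjusted p of at most 0.148 and 0.181. The call of mRpL2 was lost without Atx2 KD replicate 1, 2 or 4 or Control KD replicate 1 or 3 (adjusted p 0.0538 to 0.137), and with the mean of the follicle and eggshell markers as a covariate. The call of mRpL28 was lost without any library except Atx2 KD replicate 1 (adjusted p 0.0523 to 0.121).

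The size of these changes was also taken within the libraries numbered 1 and 2 and within those numbered 3 and 4, which the heat shock list separated. Their direction was fixed beforehand, since every knockdown library lay above every control library for all 7 genes. The log2 difference of mRpS14 was 0.74 in the former (2 against 2 libraries) and 0.71 in the latter (2 against 1). For mRpL36 it was 0.69 and 0.55, for mRpL20 0.57 and 0.64, and for mRpL48 0.48 and 0.30. The other called genes lay between 0.35 and 0.42. Over the subunits, the median difference was 0.13 for large and 0.08 for small subunit genes in libraries 1 and 2, and 0.26 and 0.21 in libraries 3 and 4. The medians of all genes were 0.00 and 0.01.

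The stalk genes ranged from near 0 to just short of the threshold. mRpL11 had 37.1, 37.1, 38.3 and 43.9 TPM in the knockdown and 27.5, 30.0 and 29.2 TPM in the control. Its groups were apart, but it missed the threshold (log2 fold change 0.37 ± 0.11, adjusted p = 0.0595; 0.0151 with the replicate block). mRpL12 gave 0.14 (adjusted p = 0.392) and mRpL10 gave 0.01 (adjusted p = 0.977). Differences between these fold changes were not tested.

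Other proteins of the large subunit core also had values above 0 without passing. mRpL14, whose bacterial counterpart bridges to the small subunit, had 86.1 to 92.2 TPM in the knockdown and 68.0 to 74.1 TPM in the control (0.28 ± 0.09, adjusted p = 0.0672; 0.0109 with the block). mRpL23 of the tunnel exit had 78.7 to 95.0 and 64.7 to 67.5 TPM (0.32 ± 0.11, adjusted p = 0.0892; 0.0230 with the block). mRpL13 had 73.1, 73.8, 72.9 and 83.7 TPM against 60.7, 62.2 and 56.1 TPM (0.29 ± 0.10, adjusted p = 0.0838; 0.0199 with the block). Its exons overlap CG10602 on the same strand by 236 bases, and the part of shared reads in its values was not tested. In TPM the groups of all 3 genes were apart, whereas in CPM those of mRpL13 and mRpL23 overlapped. All 3 also passed with upper-quartile scaling, DESeq2 and limma on log2 TPM. mRpL3, which reaches the peptidyl transferase centre, varied little within each group, with 65.0 to 67.4 and 59.2 to 60.6 TPM. Its groups were apart in TPM and overlapped in CPM, and it did not pass (0.10, adjusted p = 0.477). mRpL4 gave 0.18 (adjusted p = 0.231).

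Among mitochondria-specific large subunit proteins, mRpL46 of the central protuberance had 51.9 to 62.8 TPM in the knockdown and 45.4 to 50.4 TPM in the control (0.23 ± 0.12, adjusted p = 0.212; 0.0232 with the block). mRpL44, a protein with an RNase III-like fold, had 74.5 to 87.6 and 66.2 to 69.3 TPM (0.21, adjusted p = 0.159). mRpL37 gave -0.11 (adjusted p = 0.366) with overlapping groups. Sorted by number into bacterial-family and mitochondria-specific proteins, 5 of 45 (11.1%) and 2 of 27 (7.41%) rose, with median log2 fold changes of 0.19 and 0.11. Over all genes 5.61% rose, and 7.65% rose in the shortest length class. The share of the mitochondria-specific proteins was thus near that of short genes. The difference between the 2 kinds of protein was not tested.

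Within 0.1 of 0 on the log2 scale lay 10 of 26 small subunit genes (38.5%) and 10 of 46 large subunit genes (21.7%), a difference that was not tested. mRpS5 gave -0.02 (adjusted p = 0.910), and mRpS7, whose bacterial counterpart starts assembly of the head, gave -0.05 (adjusted p = 0.697) at 91.1 to 108 TPM in the knockdown and 90.9 to 101 TPM in the control. mRpS29, a GTP-binding protein known in mammals as DAP3, gave 0.01 (adjusted p = 0.953) at 45.8 to 49.9 and 42.5 to 52.9 TPM. mRpS30, the longest of the members at 2078 bases, gave -0.08 (adjusted p = 0.556) at 71.3 to 90.4 and 78.1 to 86.2 TPM. These 4 genes overlapped between the groups.

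The 3 paralogs of the mRpS18 family differed in level. mRpS18A had 64.7, 80.3, 73.5 and 84.8 TPM in the knockdown and 62.1, 57.8 and 54.3 TPM in the control. mRpS18C had 49.7 to 61.2 and 43.4 to 45.4 TPM, and mRpS18B was the lowest of the 72 genes. The order mRpS18A, mRpS18C, mRpS18B held in every library. In TPM the groups did not overlap for mRpS18A and mRpS18C, but neither passed (0.33 ± 0.13, adjusted p = 0.134, and 0.27 ± 0.12, adjusted p = 0.179), and mRpS18B gave 0.03 (adjusted p = 0.885).

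Another pair of small subunit genes carry names outside the rule, and their values lay within the range of the members. tko, the fly S12 protein known for its bang-sensitive mutants, had 113, 106, 116 and 126 TPM in the knockdown and 102, 90.7 and 101 TPM in the control (0.21 ± 0.07, adjusted p = 0.0856). bonsai, the S15 protein, had 67.9 to 87.9 and 64.5 to 72.7 TPM (0.16, adjusted p = 0.386). Neither passed the test.

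Summed over the subunit, large subunit genes made up 3237, 3395, 3492 and 3710 TPM in the knockdown libraries and 3033, 2845 and 2880 TPM in the control libraries. Small subunit genes made up 1836, 1871, 1900 and 2078 TPM and 1724, 1647 and 1629 TPM. Neither sum overlapped between the groups. The large subunit sums averaged 3458 ± 198 (SD, n = 4) and 2919 ± 99.7 TPM (SD, n = 3), a 1.18-fold difference. The small subunit sums averaged 1921 ± 108 and 1667 ± 50.3 TPM, 1.15-fold. The sums moved together, so the ratio of large to small subunit was 1.76, 1.81, 1.84 and 1.79 in the knockdown and 1.76, 1.73 and 1.77 in the control. Its means were 1.80 ± 0.0329 (SD, n = 4) and 1.75 ± 0.0214 (SD, n = 3), and the groups overlapped. In mammals the counterparts of mRpS30 and mRpS18A sit in the large subunit. With these moved, and tko and bonsai added to the small subunit, the ratio averaged 1.84 and 1.81.

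TPM values share a fixed total, and the eggshell transcripts took a larger part of it in the control. Rescaled to the total outside the follicle, yolk and eggshell list, the members summed to 5101 to 5863 TPM in the knockdown and 4779 to 4928 TPM in the control, a 1.13-fold difference without overlap. As a percent of estimated counts, which is not scaled for length, they made up 0.221, 0.262, 0.245 and 0.255 in the knockdown and 0.220, 0.225 and 0.210 in the control. On that scale the groups overlapped through knockdown replicate 1 and control replicate 2, and the fold was 1.13. With the mean level of the follicle, yolk and eggshell markers as a covariate, a fit added after the data were seen, 16 members rose and 0 fell, where 2.62% of all genes rose and as many fell. These 16 included 6 of the 7 genes above, without mRpL2. The median log2 fold change was then 0.44 over the large and 0.30 over the small subunit. The summed markers did not overlap between the groups (5499 to 26302 TPM in the knockdown, 34756 to 68411 TPM in the control). This fit therefore cannot separate marker level from knockdown, and no conclusion is drawn from it.

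**Figure D3:**
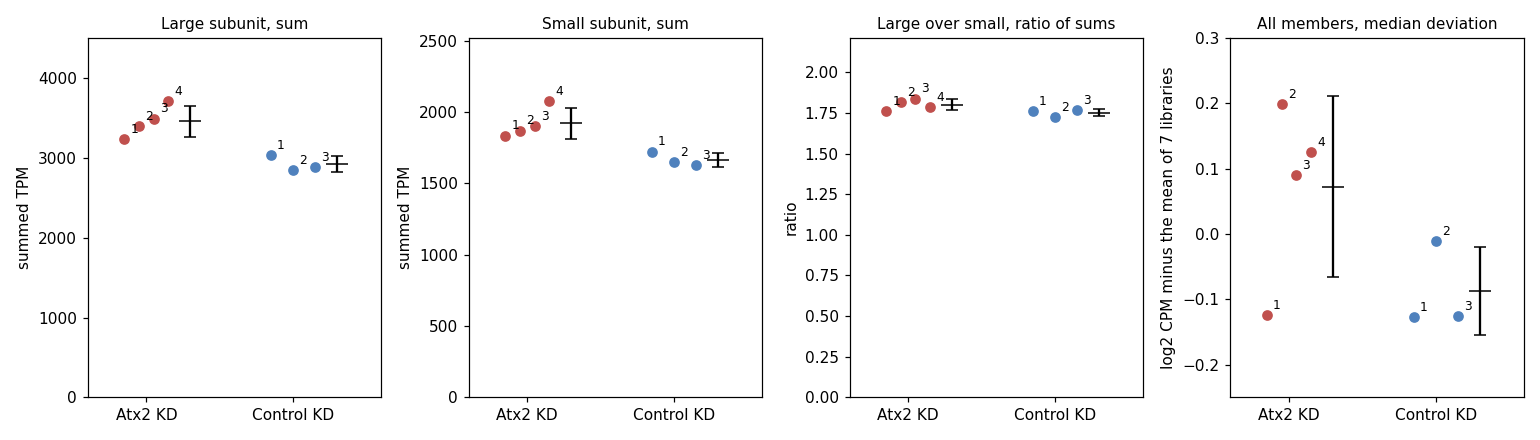
Summed TPM of the large and small subunit genes, the ratio of the sums, and the median over all members of log2 CPM minus the mean of the 7 libraries; points are libraries with their replicate number, and the lines are the mean and 1 SD (n = 4 and 3). The sums are apart between the groups, the ratio and the median deviation are not, and knockdown replicate 1 lies at -0.12 in the last panel beside control replicates 1 and 3.

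The scale also set which knockdown library stood highest. In TPM, knockdown replicate 4 had the highest sum of both subunits. In log2 CPM with TMM scaling, which feeds the test, the median member deviated from its mean over all libraries by -0.12, 0.20, 0.09 and 0.13 in knockdown replicates 1 to 4 and by -0.13, -0.01 and -0.12 in the control replicates. Knockdown replicate 1 was the lowest of its group for 66 of the 72 members (28.8% of all genes), and replicate 2 was the highest for 49 (31.8% of all genes). In the control, replicate 2 was the highest for 52 members, and the share over all genes was not taken there. The members thus moved together between libraries of 1 group by amounts as large as their median fold change, and knockdown replicate 1 stood at the control level. In CPM every knockdown library was above every control library for 15 of the 72 (20.8%; 12.3% of all genes), 11 large and 4 small, and below for 0 (15.1% of all genes). In TPM it was above for 37, 25 large and 12 small, where 14.7% of all genes were, and below for 0 (10.1% of all genes).

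Short genes as a class leaned the same way. In the shortest class, up to 1247 bases, 7.65% of all genes rose and 3.35% fell, the median log2 fold change was 0.09 and 60.6% lay above 0. The 62 members in that class had a median of 0.20, 7 rose (11.3%) and 55 lay above 0, and every knockdown library was above every control library in CPM for 16.0% of all genes of that length. The 9 members of the next class, up to 1995 bases, had a median of 0.08 against -0.01 for all genes of that length, and none passed. mRpS30 was the only longer member. The part of length in the members' values was not tested. Among the 54 members with 1 listed transcript, Salmon's effective length was 70.4 to 73.9% of the annotated length, set relative to 315 long genes, and the groups overlapped. Exons of 41 members overlap a gene on the opposite strand: 5 of the 41 (12.2%) rose, with a median of 0.21. Of the other 31, 2 (6.45%) rose, with a median of 0.14, where 5.61% of all genes rose. Overlaps were not taken over all genes, so the same split of all genes is not given.

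**Figure D4:**
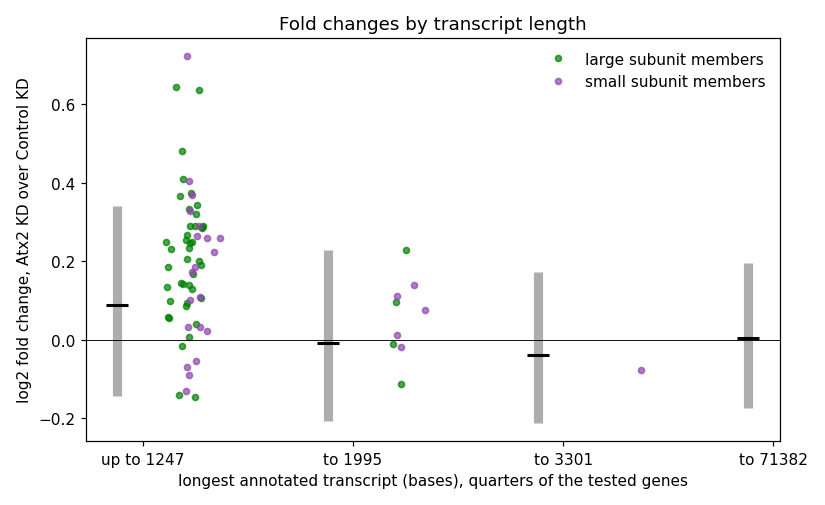
Log2 fold change of the members (green, large subunit; purple, small subunit) by class of longest annotated transcript length, beside the median (black line) and the interquartile range of all genes tested in that class (grey bar). In the shortest class the median of all genes is 0.09 and most members lie above it.

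The transcript table listed 95 transcripts of the members, and 18 genes had at least 2. Of the 94 transcripts tested, 3 rose and none fell in edgeR, where 4.71% of all transcripts passed (2.05% rose and 2.66% fell); DESeq2 called 9. The 3 were the main transcript of mRpS14, FBtr0074785 (log2 fold change 0.79 ± 0.11, adjusted p = 0.0129), FBtr0076735 of mRpL36 (0.64 ± 0.11, adjusted p = 0.0269) and FBtr0331227 of mRpL28 (0.88 ± 0.16, adjusted p = 0.0281). With the replicate block FBtr0074785 alone passed (adjusted p = 0.0430). The count was 3 without Atx2 KD replicate 1 or 2, 1 without Atx2 KD replicate 3 or 4 or Control KD replicate 1 or 3, and 0 without Control KD replicate 2. For DESeq2, the block and the left-out libraries, shares over all transcripts are not given here, so these counts have no background.

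FBtr0331227 had 29.7, 20.6, 30.1 and 27.0 TPM in the knockdown and 18.1, 11.1 and 13.8 TPM in the control. It made up 35.7, 23.0, 34.0 and 30.1% of the estimated counts of mRpL28 in the knockdown and 26.6, 17.2 and 20.6% in the control. The level was apart between the groups, and the share overlapped. Of the 41 transcripts of the 18 genes, 4 had a higher share and 5 a lower share in every knockdown library than in every control library. Over all transcripts of tested genes with at least 2, this held for 7.80% upward and 7.37% downward. In genes with 2 transcripts the shares mirror each other, as in mRpS30, mRpL14 and mRpS14, so the 9 transcripts came from 5 genes. FBtr0346193 of mRpS30 made up 16.3, 14.5, 19.5 and 14.8% in the knockdown against 10.9, 12.2 and 12.1%. FBtr0111144 of mRpS5 made up 2.64, 2.45, 1.80 and 2.93% against 3.30, 4.93 and 4.61%. The shares of both transcripts were apart between the groups while the gene totals overlapped, and neither transcript passed on its own (adjusted p = 0.179 and 0.0968). These transcripts, and FBtr0346015 of mRpS14 with a lower share, were chosen after their values were seen.

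**Figure D5:**
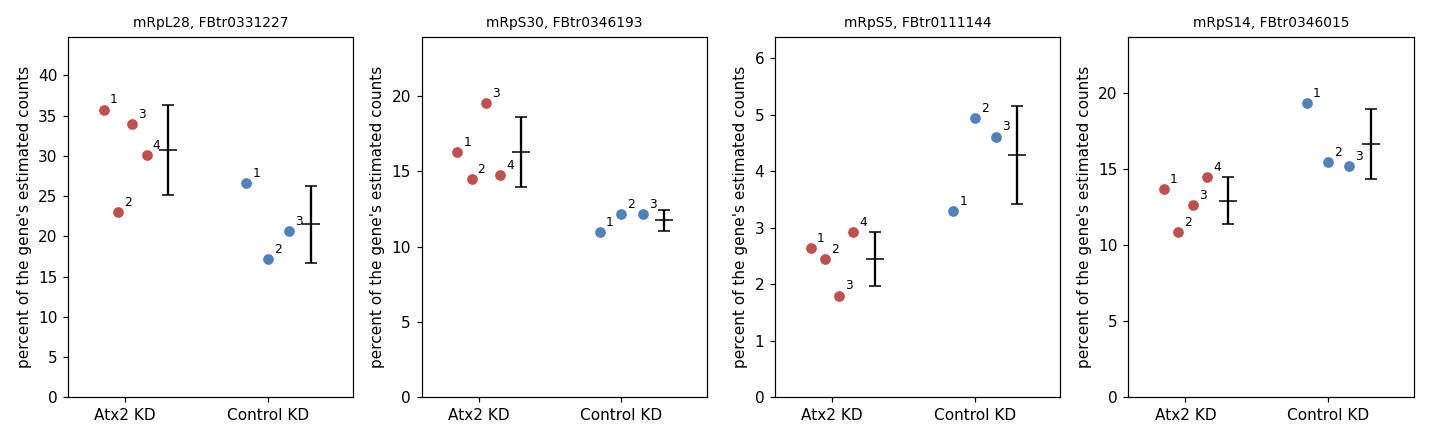
Share of the gene's estimated counts assigned to 1 transcript of mRpL28, mRpS30, mRpS5 and mRpS14, in percent, per library with replicate numbers; lines are the mean and 1 SD (n = 4 and 3). The mRpS30 share is higher and the mRpS5 and mRpS14 shares are lower in every knockdown library, and the mRpL28 shares overlap.

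Genes that act with the mitochondrial ribosome were set beside the members. Of 9 measured mitochondrial translation factors, 1 rose (11.1%, against 5.61% of all genes) and 0 fell (7.67% of all genes). Their median log2 fold change was -0.04. The 1 was mEFTu1, an elongation factor Tu that brings aminoacyl-tRNA to the ribosome, with 189, 190, 206 and 202 TPM in the knockdown and 163, 152 and 163 TPM in the control (0.29 ± 0.08, adjusted p = 0.0452). Its groups did not overlap, but it passed in only 7 of the 15 alternatives, and leaving out any library except Atx2 KD replicate 1 lost the call (adjusted p 0.0701 to 0.157). Its paralog mEFTu2 had 31.0 to 33.2 and 33.8 to 36.6 TPM (-0.16, adjusted p = 0.168). Of 18 measured genes for transcription, copying and processing of the mitochondrial genome, 0 passed in edgeR (13.3% of all genes) and the median was -0.05. At an unadjusted p under 0.05, 1 was higher and 4 were lower, and 30.6% of all genes had such a p. With the replicate block 2 fell, mTerf3 (adjusted p = 0.0378) and rswl (adjusted p = 0.0405), where 14.2% of all genes fell. Among the 89 genes for proteins of the cytoplasmic ribosome 2 rose and 2 fell (2.25% each), and the median was 0.01. With the block 9 rose (10.1%) and 4 fell, where 13.8% of all genes rose and 14.2% fell.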

How the data were processed

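Sorted ovarian cells gave rRNA-depleted, directional libraries without poly(A) selection, per the labels' protocols. The authors quantified reads with Salmon 1.9.0 after bcl2fastq 2.20, Trim Galore 0.6.7 and cutadapt 2.10, per the submitters' processing notes. The deposited estimated counts per gene and transcript are not normalized, and the deposited TPM values are scaled by the authors' Salmon run for effective length and to a common total. The genome build, the annotation and the use of strand are not given in the sources used here.

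Estimated counts were rounded, filtered with filterByExpr (minimum count 10, minimum total 15), scaled with TMM and tested with edgeR 4.0.16 (R 4.3.3) over all 10514 genes in all 7 libraries, with group as the only term. Tests were two-sided quasi-likelihood tests with Benjamini-Hochberg adjustment at 0.05, and the SE is the absolute log2 fold change over the square root of F. The same was done over 21728 transcripts. DESeq2 1.42.0 and limma 3.58.1 on log2(TPM + 1) were alternatives, beside other scalings, no filter, the replicate block, libraries 1 and 2 alone, single libraries left out and a marker covariate. Fold changes come from counts and levels are TPM, so the 2 can differ in size. Gene positions, lengths and overlaps were matched by FlyBase ID to the Ensembl release 115 annotation (BDGP6.54), where all 13771 genes were found.

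Deviations of same-numbered knockdown and control libraries correlated across genes with r = 0.146, 0.336 and 0.519 for numbers 1, 2 and 3. Libraries with different numbers gave r = -0.383 to 0.157, a range that holds the value of number 1. The titles' replicate numbers were nevertheless taken to pair the samples in the block fit. Atx2 KD replicate 4 has no control of its number, so it does not enter the group difference of the block fit. No libraries of a group agreed within sampling noise (chi-square per degree of freedom 45.6 to 236). Bacterial-family members were those numbered up to 36 or 47 in the large subunit, and up to 21, 24 or 28 in the small. Genes named are those that passed, the 3 highest and 3 lowest of each subunit, 13 landmark genes, the 5 further genes with the smallest p under the block, tko and bonsai, passing genes of the mitochondrial translation and genome lists, Atx2 and passing transcripts; mRpL50, mEFTu2, overlapping genes and the shares of mRpS30, mRpS5 and mRpS14 transcripts were chosen after their values were seen. The members and lists were chosen with earlier results of these data known.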

Additional observations from a re-analysis of the deposited data

Results flagged for a closer look

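In 42 groups of 4 knockdown values, a library lying far from the other 3 was looked for with Dixon's criterion, which chance passes in about 1 of 20 groups. It was met for a pair of stalk and core genes, both in Atx2 KD replicate 4. mRpL11 stood at 43.9 TPM there and at 37.1 to 38.3 TPM in the other knockdown libraries, with a gap of 0.832 of the range. mRpL13 stood at 83.7 TPM there and at 72.9 to 73.8 TPM in the others, with a gap of 0.915 of the range. Neither gene passed the test in the report.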

How the results depend on the processing

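The direction of both subunit medians was the same in every alternative, and no member fell in any. The count of members that rose was 7 in the report. It was 18 with upper-quartile scaling (7.71% of all genes rose), 16 with DESeq2 (9.82%) and 19 with limma on log2(TPM + 1) (7.98%). Libraries numbered 1 and 2 gave 2 (2.82%), and the marker covariate gave 16 (2.62%). RLE scaling gave 7 (5.80%) and no count filter gave 7 (3.93%). With single libraries left out it ran from 2 (1.70%) to 19 (4.17%). The highest share over all genes, 5.73%, went with 5 members, without Control KD replicate 3. The median log2 fold change of all genes was 0.06 with upper-quartile scaling and 0.04 with limma, against 0.01 in the report. Over all genes 1396 passed, against 2150 with DESeq2, 627 in libraries 1 and 2, 550 with the covariate and 467 to 1454 with single libraries left out. Member transcripts passing, 3 in the report, were 9 with DESeq2, 17 with limma, 0 in libraries 1 and 2 and 0 to 3 with single libraries left out. Shares over all transcripts are not given for any alternative. The replicate block pairs the numbers and leaves Atx2 KD replicate 4 without a partner. With it 20 members rose, where 13.8% of all genes rose. In that fit 1 member transcript passed, 2941 of all genes passed, and mRpL10 gave -0.0274. The subunit medians of log2 fold change were 0.44 (large) and 0.30 (small) with the covariate, whose summed markers did not overlap between the groups. The ratio of large to small subunit TPM was 1.10 and 1.06 (knockdown and control) from medians and 1.84 and 1.81 with reassigned genes. The sign changed in at least 1 alternative for 16 members, none of which passed in any; 8 of them are named genes. mRpS5 gave 0.0347 with upper-quartile scaling, 0.18 with the covariate and -0.0559 to 0.0421 with single libraries left out. mRpS7 gave 0.00054, 0.0734 and -0.10 to 0.00377 in the same order, and 0.00965 with limma. mRpS23 gave 0.0677 and mRpS30 0.0352 with the covariate. In libraries 1 and 2, mRpL33 gave -0.0604, mRpS18B -0.0257 and mRpL10 -0.15. With single libraries left out, mRpL10 ranged from -0.0358 to 0.0826, mRpS18B from -0.0310 to 0.14 and mRpS29 from -0.0565 to 0.0655. The cause of these shifts was not tested. Fewer samples enter when libraries are left out. Members had 528 to 11450 estimated counts per library.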

Other observations

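By chromosome arm the median log2 fold change of the members was 0.17 on X, 0.22 on 2L, 0.27 on 2R, 0.14 on 3L and 0.14 on 3R. The genes that rose lay on X (2), 2L (2) and 3L (3), and the share of all genes that rose is not given by arm. The 11 members on 2R had the highest median, and none of them passed; differences between arms were not tested. mRpL34, the shortest member at 327 bases and chosen here after its value was seen, had the largest change that did not pass, 0.48 ± 0.17 (SE, adjusted p = 0.0968 in edgeR; 0.0298 with the replicate block).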
